A study of Mus musculus with 8 samples.

Results

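The cytosolic ribosomal protein genes of mouse spermatogenic cells were described with and without Brg1, the catalytic subunit of the SWI/SNF chromatin remodelling complex, which the gene Smarca4 encodes. The members were the rows of a deposited RNA-seq table whose symbol is Rpl or Rps followed by a number and, in some, a closing a, x or l, together with Rplp0, Rplp1, Rplp2 and Rpsa. This gave 80 of 28460 rows, with 49 genes of the large subunit and 31 of the small subunit. The study sequenced polyadenylated RNA from 4 Brg1 cKO (conditional knockout) and 4 Brg1 WT libraries. All 8 came from P12 (postnatal) testes of mice labelled as of mixed background, which were digested with collagenase and trypsin and filtered, and the design text calls the 4 libraries of a genotype biological replicates. The labels name neither the Cre driver nor the deleted exons, and do not say how many animals made up a library or whether the WT mice carried Cre or floxed alleles.

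A cytosolic ribosome joins a small subunit, which reads the messenger RNA, to a large subunit, which forms peptide bonds. Each subunit holds many proteins that are made in near-equal amounts, and their genes are known for high, coordinated transcription and for a pyrimidine tract at the transcription start that ties their translation to mTOR signalling. Ribosomal protein genes have also left many processed pseudogenes in mammalian genomes. In male germ cells the X chromosome is transcriptionally silenced during part of meiosis. Autosomal retrogenes such as Rpl10l and Rpl39l, copies of the X-linked Rpl10 and Rpl39, are known for their expression in meiotic male germ cells.

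The coding sequences of Rpl39, whose product lines the exit tunnel of the large subunit, and of its paralog Rpl39l are shown. Reads of this part can be told apart only where the pair differs. The untranslated parts of the transcripts were not compared. Capitals mark the 23 of 156 positions that differ, which leaves an identity of 85.3%. Both are written from the start codon to the stop codon as in the GENCODE annotation of GRCm38, with Rpl39 on chromosome X and Rpl39l on chromosome 16.
Rpl39: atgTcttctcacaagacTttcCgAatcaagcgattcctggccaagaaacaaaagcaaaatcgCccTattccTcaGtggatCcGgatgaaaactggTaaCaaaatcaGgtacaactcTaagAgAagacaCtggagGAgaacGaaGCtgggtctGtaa
Rpl39l: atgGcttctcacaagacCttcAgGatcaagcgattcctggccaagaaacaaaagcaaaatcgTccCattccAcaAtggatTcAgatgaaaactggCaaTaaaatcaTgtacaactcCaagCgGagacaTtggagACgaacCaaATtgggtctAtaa
The first 120 coding bases of Rps2, a small subunit protein gene on chromosome 17, and of its copy Rps2-ps13 on chromosome X are shown as the opposite case. They differ at the 2 positions in capitals, and at 7 of 882 over the whole coding sequence, an identity of 99.2%. The stretch was chosen as the first of 120 bases with the most differences.
Rps2: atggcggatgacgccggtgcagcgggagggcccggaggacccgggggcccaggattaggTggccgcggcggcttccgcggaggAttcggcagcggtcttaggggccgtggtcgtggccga
Rps2-ps13: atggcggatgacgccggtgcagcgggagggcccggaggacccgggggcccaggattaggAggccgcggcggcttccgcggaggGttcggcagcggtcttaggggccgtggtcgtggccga

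Smarca4 was lower in every cKO library. It had 129.2, 122.3, 110.9 and 121.7 CPM (counts relative to a library total scaled by TMM, the trimmed mean of M-values) in Brg1 cKO replicates 1 to 4, against 347.5, 356.7, 346.9 and 337.9 CPM in Brg1 WT replicates 1 to 4 (log2 fold change -1.52 ± 0.061 SE, edgeR quasi-likelihood test, adjusted p = 6.8e-06). Totals ran from 20456743 to 27872400 estimated counts in cKO libraries and from 25213100 to 32596038 in WT libraries. The libraries also held RNA of other testis cells. All markers of the germ cell and somatic lists that the table holds had counts in at least 1 library. The 14 Sertoli cell markers, of nursing cells of the tubule, summed to between 2642 and 3242 CPM in cKO libraries and between 2201 and 2800 CPM in WT libraries, with 5 higher and 0 lower in cKO. The 12 pan-germ cell markers summed to between 1607 and 2192 CPM in cKO and between 2108 and 2625 CPM in WT, with 0 higher and 3 lower. Of 12 undifferentiated spermatogonia markers 8 were lower, of 12 meiotic markers 8 and of 7 tested pachytene and spermatid markers 5, and none of these was higher. Of 8 Leydig cell markers 2 were higher, and of 12 peritubular and stromal markers 2 were higher and 1 lower. No endothelial, macrophage or erythroid marker was called. For these markers, higher or lower means called at a Benjamini-Hochberg adjusted p under 0.05 by edgeR. Over all genes tested 8.79% were called higher and 11.8% lower. In such bulk samples, fewer cells of a type and less RNA per cell cannot be told apart, and the part of these shifts in the results below was not tested.

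The ribosomal protein genes as a group took overlapping shares of the RNA in the 2 genotypes. They made up 1.92%, 2.26%, 1.84% and 1.95% of the estimated counts in cKO replicates 1 to 4, against 2.10%, 1.83%, 1.97% and 1.85% in WT replicates 1 to 4. The groups overlapped, with means of 2.00% ± 0.185 in cKO and 1.94% ± 0.125 in WT (SD, n = 4 each). The large subunit genes took 1.18% to 1.41% in cKO libraries and 1.14% to 1.29% in WT libraries, and the ratio of large to small subunit counts was 1.68 ± 0.074 in cKO and 1.68 ± 0.091 in WT. Leaving mitochondrially encoded transcripts and Trim2 out of the total gave shares of 2.30% ± 0.233 in cKO and 2.22% ± 0.100 in WT. The share was described without a test.

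**Figure D1:**
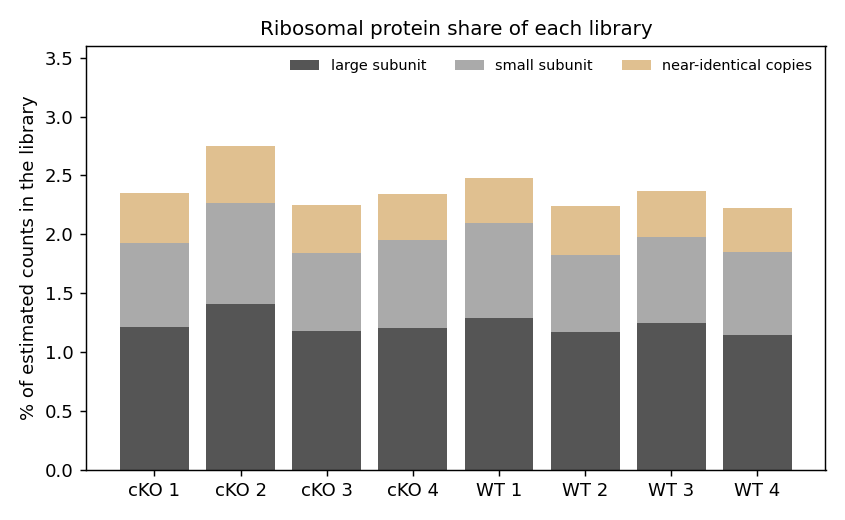
Share of the estimated counts of each library, in percent, for large subunit genes, small subunit genes and the near-identical copies of both, stacked, with the 4 Brg1 cKO libraries left of the 4 Brg1 WT libraries. The members reach 2.26% in cKO replicate 2 and 1.83% to 2.10% in the WT libraries, and the genotypes overlap.

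Single genes were then tested across the whole table, with a call meaning a Benjamini-Hochberg adjusted p under 0.05 over 16059 genes. Of the 78 members with enough counts to be tested, 8 were higher in Brg1 cKO, 0 were lower and 70 were not called. The percentage called over all genes tested was 8.79% in the higher and 11.8% in the lower direction (20.6% in either), against 10.3% and 0% of the members. By unadjusted p under 0.05 edgeR gave 16 members higher and 0 lower, beside 2838 genes higher and 3059 lower of all 16059 tested. DESeq2 and limma-voom also gave 0 lower members after adjustment. The large subunit had 6 higher of 49 and the small subunit 2 higher of 29. The log2 fold changes of the members ran from -0.55 to 0.80 with a median of 0.09 (large subunit 0.08, small subunit 0.12), beside a median of 0.01 over all genes tested. Of the 78 members 59 were above 0, beside 8270 of all 16059 genes tested. Without cKO replicate 2 the median of the members was 0.038. All 4 cKO libraries lay above all 4 WT libraries in 10 members (11.1% of all genes tested) and below them in 0 (15% of all genes tested). The remaining members Rps12 and Rps27 were listed at 0 in every library.

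**Figure D2:**
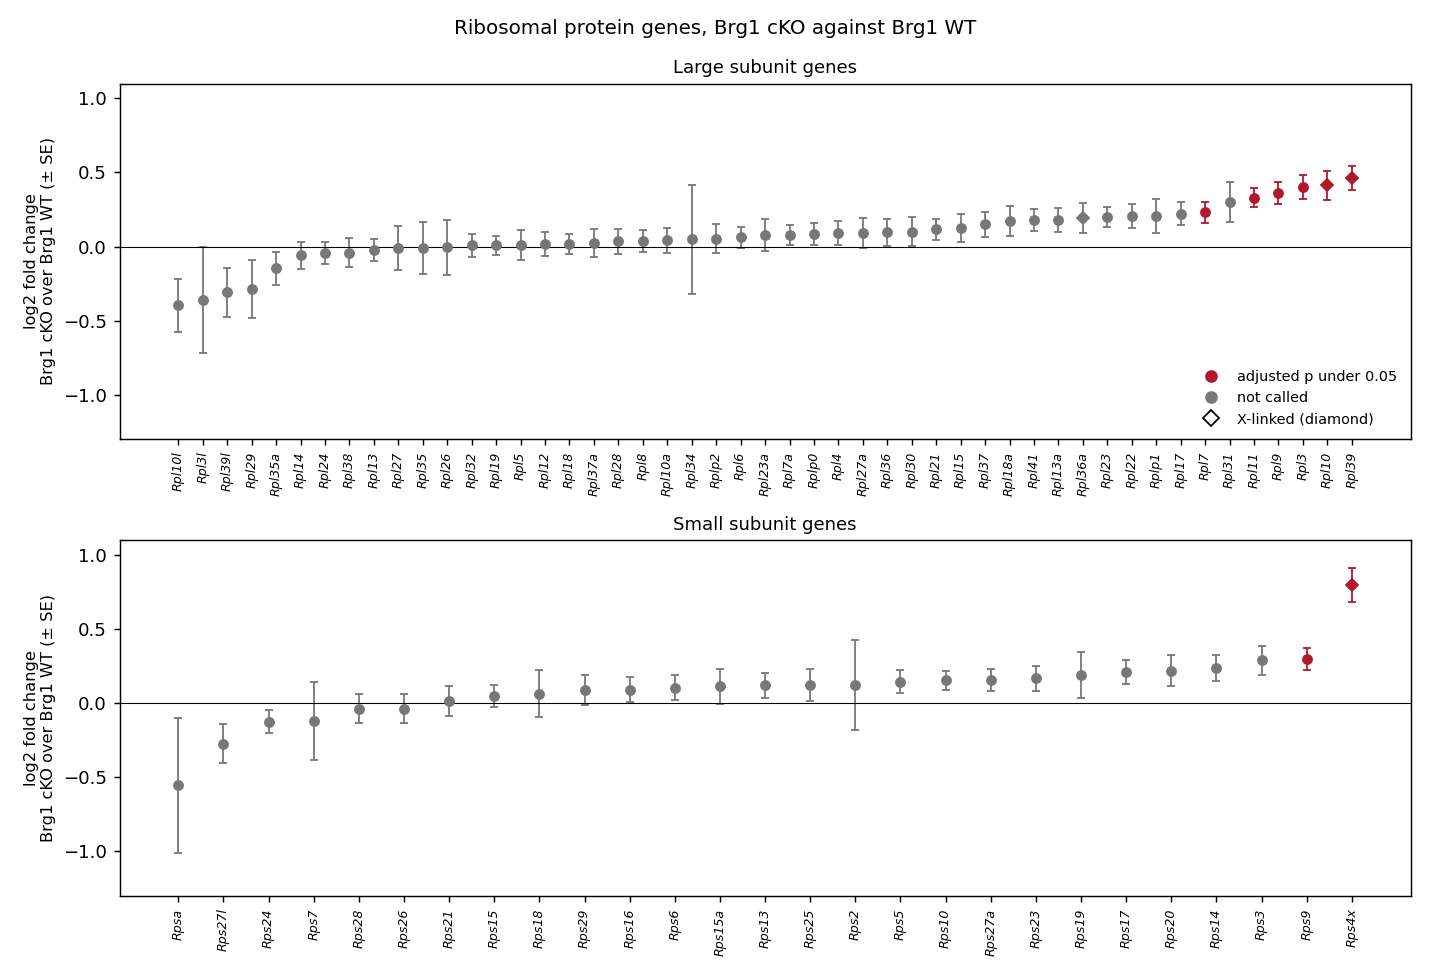
Log2 fold change of Brg1 cKO over Brg1 WT for the 49 large subunit genes (upper panel) and 27 of the 29 tested small subunit genes (lower panel), in ascending order, with bars of 1 SE from the edgeR fit. Red marks adjusted p under 0.05 and diamonds mark X-linked genes. Rps4x stands highest at 0.80, and the widest bars belong to Rpsa, Rpl34, Rpl3l and Rps2.

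Rps4x, the X-linked gene of a small subunit protein, changed most. It had 258.5, 268.2, 228.2 and 229.5 CPM in cKO replicates 1 to 4, against 113.0, 135.1, 157.3 and 161.4 CPM in WT replicates 1 to 4. The lowest cKO library was above the highest WT library, and the WT libraries differed among themselves by more than the cKO libraries did relative to their level. The fold change was 1.74 (log2 0.80 ± 0.11 SE, adjusted p = 0.0034 by edgeR). Rps4x stayed called under each of the 24 alternatives tried, with log2 fold changes between 0.42 and 1.49. Rps4y2, named Rps4l in the GENCODE annotation, is a relative of Rps4x and was chosen after its values were seen. Its transcript was 79.9% identical to the Rps4x coding sequence over 783 aligned positions. The row was listed at 88.7 ± 13.8 CPM in cKO and 92.1 ± 7.11 CPM in WT (SD, n = 4 each), with overlap between genotypes.

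Both other X-linked genes that passed the test belong to the large subunit. Rpl39 had 63.4, 69.9, 64.4 and 63.2 CPM in cKO replicates 1 to 4, against 46.7, 41.9, 54.0 and 46.5 CPM in WT replicates 1 to 4 (log2 fold change 0.46 ± 0.082 SE, adjusted p = 0.0069 by edgeR). Rpl10, whose product completes the large subunit late in its assembly and helps join the subunits, had 252.2, 294.8, 255.4 and 250.5 CPM in cKO, against 189.1, 171.7, 233.3 and 196.4 CPM in WT (log2 fold change 0.41 ± 0.097 SE, adjusted p = 0.019 by edgeR). For neither gene did the genotypes overlap. The fourth X-linked member, Rpl36a, ranged from 70.1 to 88.1 CPM in cKO and from 57.6 to 74.8 CPM in WT, with overlap and no call (adjusted p = 0.20 by edgeR). The 4 X-linked members, grouped by chromosome after their values were seen, had a median log2 fold change of 0.44, beside 0.09 for the 74 autosomal members and 0.10 for all 721 X-linked genes tested. Of those X-linked genes 13.7% were higher and 7.63% lower in cKO, and of the autosomal genes tested 8.71% were higher.

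Of the autosomal genes, Rpl3, Rpl9 and Rpl11 rose by the most. Rpl3, which lies close to the catalytic centre of the large subunit, had 595.0, 622.3, 524.8 and 616.1 CPM in cKO replicates 1 to 4, against 415.5, 418.2, 482.9 and 468.4 CPM in WT replicates 1 to 4 (log2 fold change 0.40 ± 0.081 SE, adjusted p = 0.011 by edgeR). Rpl9, at the base of the large subunit's stalk, had 271.9, 299.9, 246.4 and 262.7 CPM in cKO, against 229.1, 194.5, 207.5 and 209.5 CPM in WT (log2 fold change 0.36 ± 0.076 SE, adjusted p = 0.013 by edgeR). Rpl11, which also binds the p53 regulator Mdm2, had 205.8, 232.3, 210.9 and 204.2 CPM in cKO, against 172.3, 168.4, 180.0 and 158.3 CPM in WT (log2 fold change 0.33 ± 0.064 SE, adjusted p = 0.010 by edgeR). In each of the 3 genes every cKO library exceeded every WT library. Rps9, a small subunit assembly protein gene, averaged 326.2 ± 30.2 CPM in cKO and 265.0 ± 7.41 CPM in WT, and the large subunit gene Rpl7 averaged 379.8 ± 31.4 CPM in cKO and 323.8 ± 12.2 CPM in WT (SD, n = 4 each). These last 2 calls fell outside the naming rule and were chosen after their values were seen, with adjusted p = 0.020 for Rps9 and adjusted p = 0.045 for Rpl7 by edgeR. Rps9 lost its call without cKO replicate 1 (log2 fold change 0.30) or WT replicate 2 (0.29), and Rpl7 lost it without any library other than cKO replicate 4 (0.18 to 0.27).

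**Figure D3:**
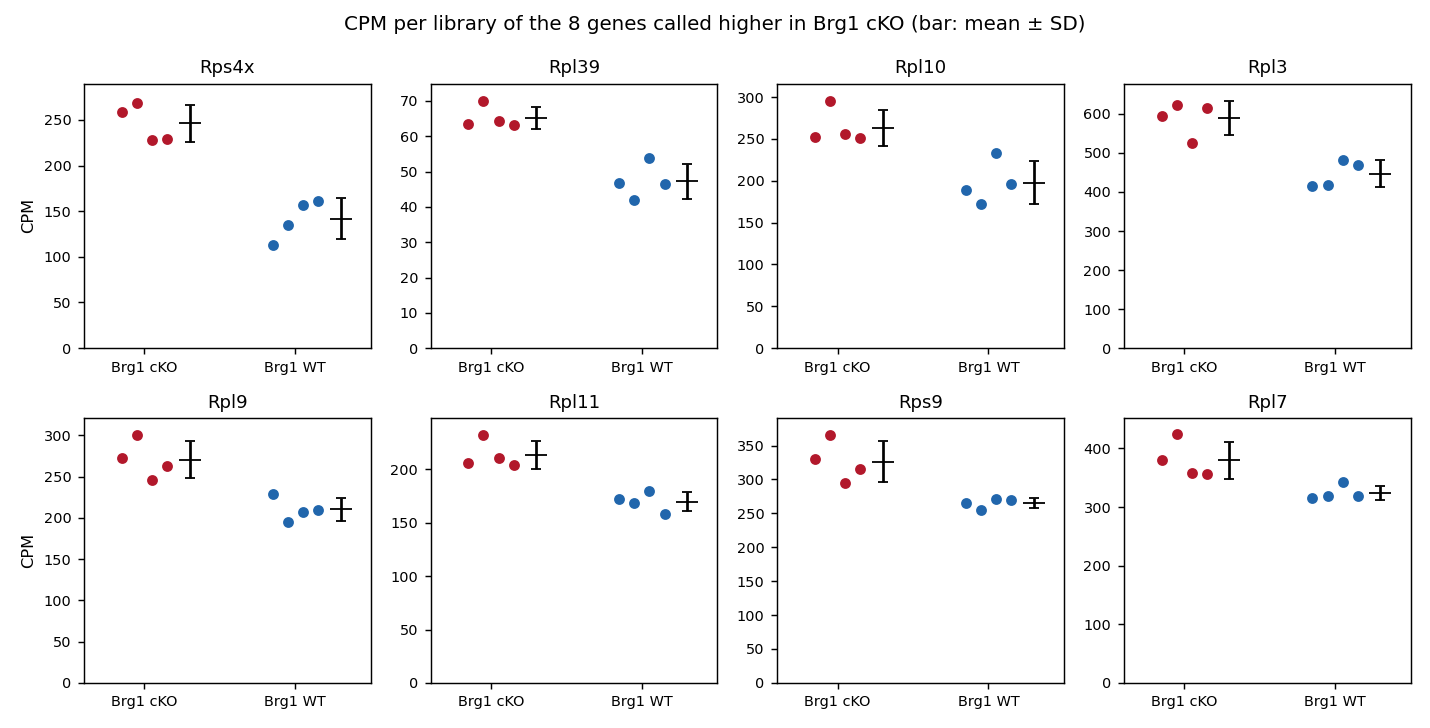
CPM in each library of the 8 ribosomal protein genes called higher, on linear axes from 0, with Brg1 cKO left of Brg1 WT and a black bar for the mean ± SD of 4 libraries. In every panel the lowest cKO point is above the highest WT point, with the widest separation for Rps4x.

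The calls changed with the level taken as no change, as did those of most genes in the table. With the Sertoli marker median set as no change, Rps4x alone stayed called higher (0.455% of all genes tested were) and 44 of the 78 members were called lower (52.7% of all genes tested were). In that setting the log2 fold changes turned negative, without a call, for Rpl9 (-0.013), Rpl11 (-0.047), Rps9 (-0.077) and Rpl7 (-0.15). With the pan-germ cell marker median set as no change 63 members were called higher and 0 lower, beside 50% and 3.82% of all genes tested. With the undifferentiated spermatogonia marker median 71 were called higher and 0 lower, beside 77.3% and 1.53%. In the order Sertoli, pan-germ and undifferentiated spermatogonia, these settings moved the median of all genes tested by -0.38, 0.33 and 0.69. Changes given without a named setting are relative to a median of 0.01. That median was 0.020 with WT replicates 1 and 2 left out together. Without WT replicates 1 and 2 together, which leaves 4 cKO against 2 WT libraries, 438 genes were called in all (0.584% higher and 2.08% lower), against 3312 with all libraries, and Rps4x was the single member called (log2 fold change 0.63, adjusted p = 0.030 by edgeR). The other 7 genes had log2 fold changes there of 0.38 for Rpl39, 0.30 for Rpl10, 0.31 for Rpl3, 0.38 for Rpl9, 0.34 for Rpl11, 0.27 for Rps9 and 0.20 for Rpl7. Rpl39, Rpl10, Rpl3, Rpl9 and Rpl11 stayed called when any 1 of the 8 libraries was left out.

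None of the 4 paralogs was called, and this changed with the choice of zero. With the Sertoli marker median as no change Rpl10l (-0.77), Rpl39l (-0.68) and Rps27l (-0.65) were called lower, and with the undifferentiated spermatogonia marker median all 4 were above 0, with Rps27l (0.42) called higher. Rpl10l, the retrogene of Rpl10 that mouse spermatocytes need for meiosis, had 18.6, 26.9, 19.5 and 24.2 CPM in cKO replicates 1 to 4, against 38.4, 30.8, 22.7 and 25.5 CPM in WT replicates 1 to 4 (log2 fold change -0.40 ± 0.18 SE, adjusted p = 0.14 by edgeR). Rpl39l had 17.9, 27.1, 19.9 and 20.8 CPM in cKO, against 34.2, 26.9, 23.3 and 21.9 CPM in WT (log2 fold change -0.31 ± 0.17 SE, adjusted p = 0.21 by edgeR). WT replicate 1 was the highest library for both, and the genotypes overlapped. Rps27l, a p53 target in human and mouse cells, ranged from 44.8 to 50.6 CPM in cKO and from 46.4 to 73.4 CPM in WT (adjusted p = 0.16 by edgeR). Rpl3l, best known from striated muscle, stayed between 1.09 and 2.69 CPM in cKO and between 1.34 and 3.72 CPM in WT.

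Set against its parent per kilobase of transcript, the paralogs of Rpl10 and Rpl39 were less abundant in the cKO libraries. Rpl10l amounted to 5.23%, 6.45%, 5.39% and 6.84% of Rpl10 in cKO replicates 1 to 4, against 14.3%, 12.7%, 6.88% and 9.19% in WT replicates 1 to 4. Rpl39l amounted to 25.6%, 35.0%, 28.0% and 29.8% of Rpl39 in cKO, against 66.2%, 58.0%, 39.0% and 42.6% in WT. The genotypes did not overlap in either ratio, by a narrow margin for Rpl10l, and the ratios were described without a test because the parents' rise enters them. Rpl3l amounted to 0.140% to 0.404% of Rpl3 in cKO and 0.227% to 0.702% in WT, with overlap. Rps27l had no ratio because Rps27 was listed at 0. Lengths were medians over each gene's annotated transcripts, which scale all libraries alike but set the level of each percentage. The meiotic markers summed to 1087 to 1326 CPM in cKO and 1490 to 2140 CPM in WT, highest in WT replicate 1, and the pachytene and spermatid markers to 89.1 to 105.3 CPM in cKO and 132.0 to 235.2 CPM in WT, highest in WT replicates 1 and 2. Their part in the ratios was not tested.

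**Figure D4:**
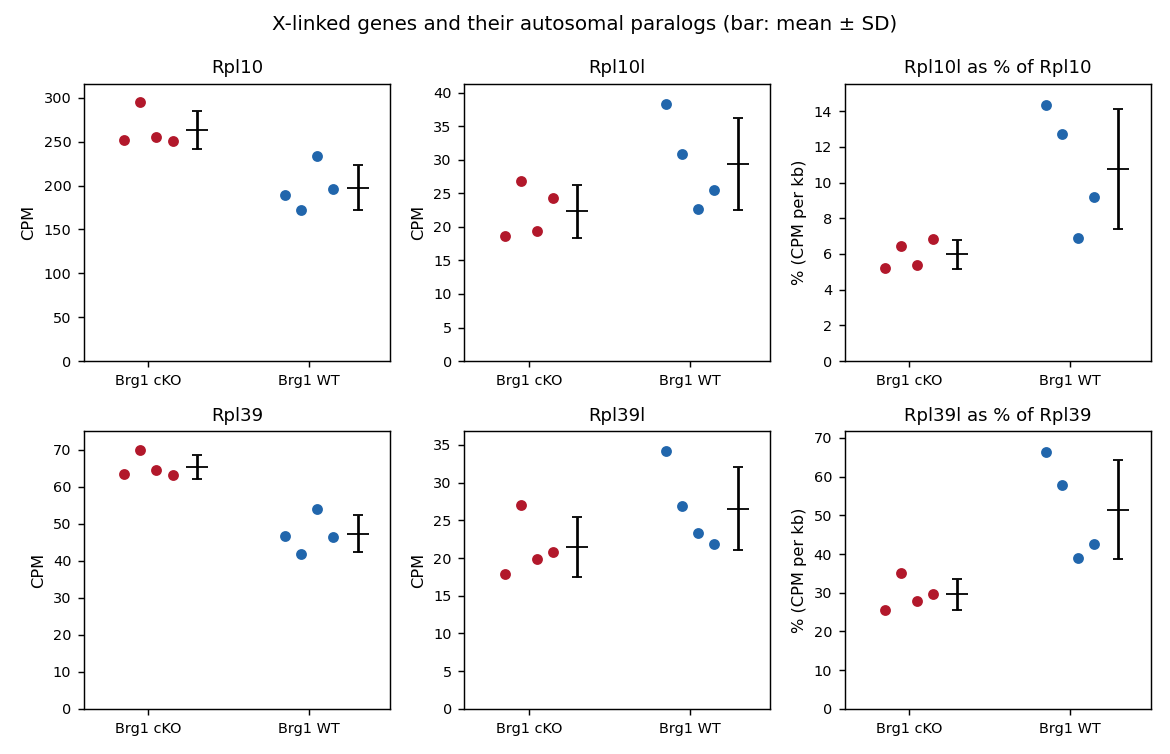
Rpl10 and Rpl39 (left, CPM), their autosomal paralogs Rpl10l and Rpl39l (middle, CPM) and the paralog as a percentage of its parent per kilobase (right), with Brg1 cKO left of Brg1 WT, 1 point per library and black bars for mean ± SD. The parents separate by genotype, the paralogs overlap, and the ratios average 5.98% in cKO and 10.8% in WT for Rpl10l and 29.6% in cKO and 51.4% in WT for Rpl39l.

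Upstream stretches of the Rpl39 pair are shown because Rpl39 was called and its paralog was not, a difference that was not itself tested. They are the 100 bases before the RefSeq transcription start on GRCm38.p6, chrX:37085223-37085322 on the minus strand for Rpl39 and chr16:10170128-10170227 on the plus strand for Rpl39l. Capitals mark the ETS-type motif CCGGAAG, the TATA motif TATAAA, the YY1-type motif AAGATGG (all on either strand), and, close to the start, a C followed by at least 7 pyrimidines.
Rpl39: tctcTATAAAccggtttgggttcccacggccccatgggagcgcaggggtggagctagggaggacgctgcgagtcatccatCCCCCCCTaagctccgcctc
Rpl39l: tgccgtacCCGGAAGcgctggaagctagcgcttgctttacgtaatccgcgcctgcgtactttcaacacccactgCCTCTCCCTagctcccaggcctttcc
Promoters of 60 members were matched, from 250 bases before to 50 after the start. A gene counted where any of its promoters held the motif. CCGGAAG occurred in 25 members (41.7%, against 9.93% of all 27025 genes with a promoter), TATAAA in 6 (10% against 15.7%) and AAGATGG in 9 (15% against 7.28%). A pyrimidine run of at least 8 bases that begins with C, within 50 bases of the start, occurred in 51 members (85%, against 32.0% of all genes with a promoter). In that longer window both Rpl39 and Rpl39l hold CCGGAAG, although the printed stretch of Rpl39 does not. A match describes letters and no binding.

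None of the genes named for abundance was called. Rplp0, the base of the stalk that recruits elongation factors, averaged 881.0 ± 84.4 CPM in cKO and 830.8 ± 12.2 CPM in WT (adjusted p = 0.45 by edgeR). Its partners Rplp1 and Rplp2 had log2 fold changes of 0.21 ± 0.12 and 0.05 ± 0.098 (SE) and were not called. Nor were Rpl4 of the exit tunnel (log2 fold change 0.09), Rpl13a, known for translational silencing in human monocytes (0.18), and Rps24, a Diamond-Blackfan anaemia gene in humans (-0.13).

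Most members have near-identical copies elsewhere in the table, to which kallisto can assign reads of the gene. A copy was an annotated transcript at least 95% identical over at least 80% of a member's coding sequence, and 67 of the 80 members had at least 1 such copy with counts in the table (371 copies). Both members listed at 0 have a copy with the same coding sequence. Rps12-ps3, 100% identical to Rps12 over its 399 coding bases, had 284.0 to 369.0 CPM in cKO and 254.5 to 294.6 CPM in WT. Gm9846, 100% identical to Rps27 over 255 bases, had 123.5, 140.3, 120.8 and 116.7 CPM in cKO, against 96.6, 92.5, 105.2 and 85.3 CPM in WT, without overlap.

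In other families the row and its copy differed from library to library within a genotype. Rps2 had 467.3, 589.1, 306.2 and 656.7 CPM in cKO replicates 1 to 4, against 463.8, 275.6, 439.5 and 672.8 CPM in WT replicates 1 to 4. Rps2-ps13, the copy printed above, had 192.5, 239.4, 348.3 and 0.89 CPM in the same cKO libraries, against 184.7, 377.5, 199.4 and 0 CPM in the WT libraries. Where the copy was near 0, in replicate 4 of each genotype, Rps2 was at its highest, and with all copies added the family had 674.0 to 873.2 CPM in cKO and 660.9 to 695.5 CPM in WT. Rpsa, which doubles as a laminin receptor, had 43.4, 59.4, 109.1 and 41.0 CPM in cKO, against 112.6, 108.7, 114.5 and 35.8 CPM in WT, with 86.5% of its family's counts in copies. Its fitted change of -0.55 (log2, SE 0.45) was the lowest of the members, and with copies added it was 0.23 ± 0.11 SE, not called in either form (adjusted p = 0.41 for the row and adjusted p = 0.15 for the family by edgeR). Rpl34 ranged from 41.0 to 99.5 CPM in cKO and from 43.9 to 94.2 CPM in WT as a row, and from 111.9 to 142.5 CPM in cKO and from 127.1 to 130.7 CPM in WT as a family.

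The 22 tested members with at least 20% of family counts in copies had a median coefficient of variation within genotype of 11.7% as rows and 8.25% as families, and the family value was lower in 19 of them. For the other 56 members the medians were 8.16% and 8.14%. Copies took 0.10% of the family of Rps4x, 0.20% of that of Rpl3, 0.34% of that of Rpl9 and none of that of Rps9, and 11.0% for Rpl39, 9.55% for Rpl10 and 10.5% for Rpl11. With copies added to every member, an analysis chosen after seeing the data, all 8 calls were kept, beside 9.05% higher and 12% lower over all genes tested, and 2 joined them, Rps27 (log2 fold change 0.40 ± 0.081 SE, adjusted p = 0.011 by edgeR) and Rps23 (0.24 ± 0.076 SE, adjusted p = 0.047 by edgeR).

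**Figure D5:**
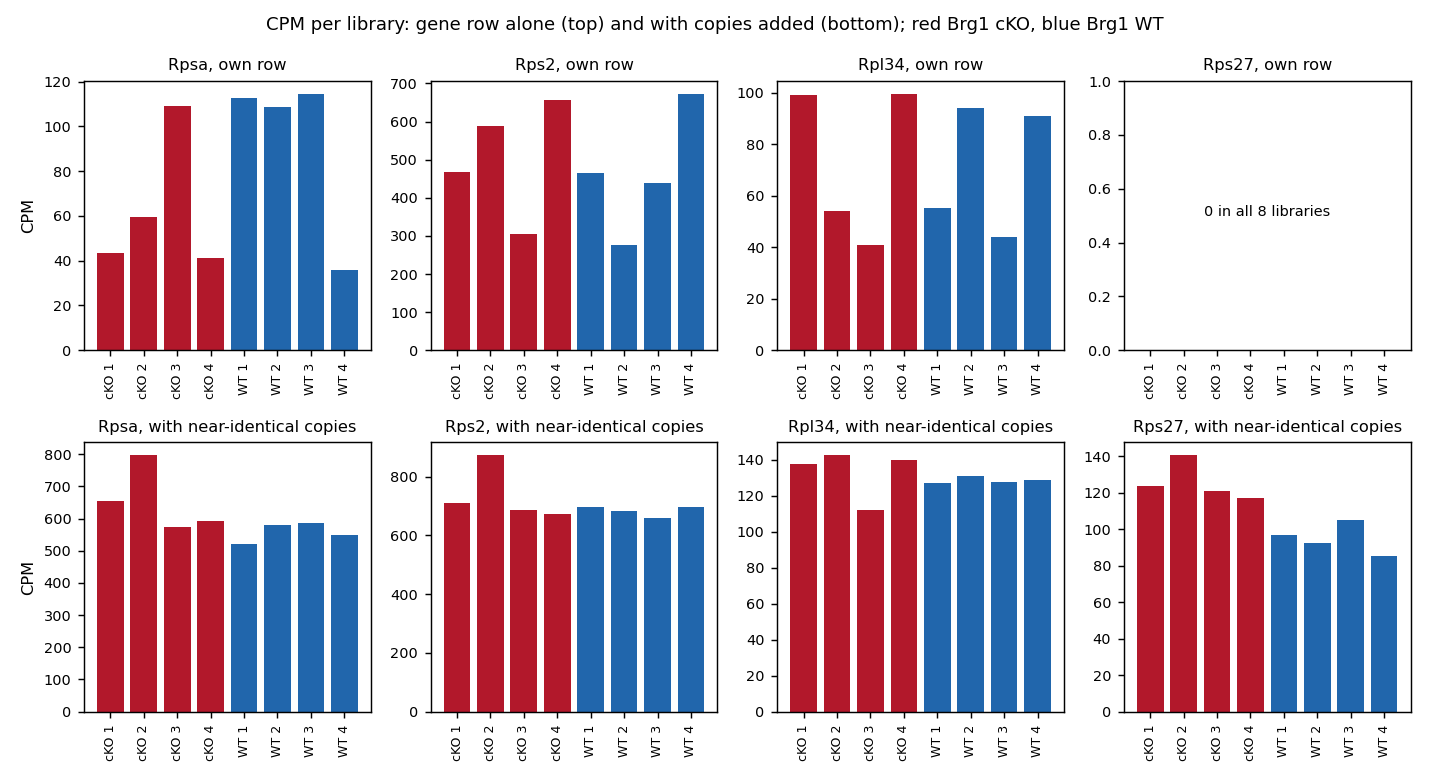
CPM in each library for the rows of Rpsa, Rps2, Rpl34 and Rps27 (top) and for the same genes with near-identical copies added (bottom), with the 4 Brg1 cKO libraries in red left of the 4 Brg1 WT libraries in blue. The rows of Rpsa, Rps2 and Rpl34 swing between libraries of 1 genotype while their sums are more even. Rps27 goes from 0 as a row to 117.2 to 140.6 CPM in cKO and 85.5 to 105.4 CPM in WT as a family.

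Of 6 ribosomal protein genes with other symbols, 1 was called higher. Gnb2l1, the older symbol of Rack1, whose product sits on the small subunit, averaged 381.0 ± 30.1 CPM in cKO and 324.1 ± 5.38 CPM in WT (SD, n = 4 each; log2 fold change 0.23, adjusted p = 0.035 by edgeR). Fau, whose product is made as a fusion protein, had a log2 fold change of -0.04, and Fau and the relatives Rpl22l1, Rpl7l1 and Rpl36al were not called. Rps3a1, a small subunit gene that the symbol rule also leaves out and that was chosen after its values were seen, averaged 439.1 ± 146.6 CPM in cKO and 439.6 ± 71.0 CPM in WT (SD, n = 4 each). Of 75 mitochondrial ribosomal protein genes tested, 1 was higher and 8 were lower (median log2 fold change -0.10), beside 8.79% higher and 11.8% lower over all genes tested. Mrpl38 (-0.39), Mrps10 (-0.42) and Mrps22 (-0.33) had the smallest adjusted p-values of that list.

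Genes that act with the ribosome did not move as 1 block. The counts of called genes below stand beside 8.79% higher and 11.8% lower over all genes tested. Of 29 translation factor genes 11 were higher and 2 lower (median log2 fold change 0.11), with the helicase gene Eif4a2 at 0.37, the start codon selection factor gene Eif1 at 0.26 and Eif2s1, which encodes the alpha subunit of eIF2, at -0.27. Of 43 ribosome biogenesis genes 1 was higher and 11 lower (median -0.11), with Rrp12 at -0.48, Ddx10 at -0.46 and Heatr1 at -0.52. Of 14 RNA polymerase I genes Rrn3 alone was lower, at -0.19, and none was higher. Of 27 growth regulator genes 3 were higher, with Akt1s1, an mTOR inhibitor, at 0.24 and the Max partner Mxd4 at 0.27, and Mtor itself alone was lower, at -0.36. The 1 small nucleolar RNA host gene found in the table of 10 listed, Snhg11, was lower at -0.37. These fold changes are all on the log2 scale, and the germ cell and Sertoli marker shifts given above accompany them.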

How the data were processed

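RNA-seq of P12 spermatogenic cells was deposited as 1 table of 28460 gene symbols by 8 libraries. Its values are estimated counts made by the authors with kallisto 0.42.5, per the submitters' processing notes, which also name edgeR and the genome build mm9. The transcript annotation behind the table is unstated. Of the deposited values 39.4% were not whole numbers (tolerance 0.001), so the estimated counts were rounded. The kit was a stranded one for mRNA (per the labels). Total estimated counts per library ran from 20456743 to 32596038.

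Genes were kept with filterByExpr by genotype (16059 tested). Libraries were scaled by TMM and fitted with edgeR 4.0.16 (robust quasi-likelihood test, genotype as the only term) in R 4.3.3. P-values were adjusted by Benjamini-Hochberg over all genes tested, with a threshold of 0.05. An SE was obtained as the size of the log2 change over the root of its F statistic. Alternatives used DESeq2 1.42.0, limma 3.58.1 (limma-voom), other scalings, filters and left-out libraries. Length and GC offsets were fitted with mgcv 1.9.3. The test was checked on simulated data. Gene lengths (median transcript length) and near-identical copies came from GENCODE M21 on GRCm38, matched by symbol, with copies found at 95% identity over 80% of the coding sequence. Promoters came from RefSeq on GRCm38.p6.

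The members and all lists were chosen with earlier results of these data known. Named genes were Smarca4, paralog pairs, the Rplp genes and Rpsa, the 6 largest called changes in each direction, the 3 members of each subunit with the highest mean CPM, ribosomal protein genes outside the symbol rule and up to 3 called genes of each accompanying list. The marker genes Adgre1 and Hbb-b1 and 9 of 10 small nucleolar RNA host genes were not matched by symbol. No library differed from another of its genotype by as little as sampling noise (lowest chi-square per degree of freedom 20.2). Results for a few genes that these rules would name are not reported here.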

Additional observations from a re-analysis of the deposited data

Results flagged for a closer look

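In groups of 4 libraries, a library was picked out where its gap to the nearest other exceeded 0.829 of the group's range. Chance picks about 1 in 20 groups, and 60 groups were examined. Brg1 cKO replicate 2 stood above the other cKO libraries for Rpl10 (294.8 CPM, others 250.5 to 255.4), Rps27l (50.6 CPM, others 44.8 to 45.7) and the large subunit share (1.41% of counts, others 1.18% to 1.21%). Brg1 cKO replicate 3 was low for the Rpl34 family (111.9 CPM, others 137.8 to 142.5). Among WT libraries, replicate 4 was low for Rpsa (35.8 CPM, others 108.7 to 114.5) and replicate 3 was high for Rpl7 (341.9 CPM, others 315.4 to 319.0).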

How the results depend on the processing

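Rps4x was higher and called in all 24 alternatives. Rpl39, Rpl10, Rpl3, Rpl9 and Rpl11 were called in 21 each, Rps9 in 17 and Rpl7 in 9. DESeq2 called 13 members higher and 2220 of 22936 genes tested higher. Unscaled totals called 6 members higher and 812 of 16059 genes tested higher. Taking the pan-germ median as no change called 63 members higher (8029 genes higher and 613 lower), with medians of 0.42 for all members, 0.41 for large and 0.45 for small subunit genes, and turned Rps24 to 0.21 and, without a call, Rpl39l to 0.024 and Rps27l to 0.060. Taking the undifferentiated spermatogonia median as no change called 71 members higher (12412 genes higher and 245 lower), with medians of 0.78, 0.77 and 0.81 in that order, and turned Rps27l to 0.42, Rps24 to 0.56 and, without a call, Rpl10l to 0.29, Rpl39l to 0.38, Rpl3l to 0.33 and Rpsa to 0.13. Taking the Sertoli median as no change called 1 member higher and 44 lower (73 genes higher and 8459 lower), with medians of -0.28, -0.30 and -0.26. That setting turned Rplp0 to -0.29, Rplp2 to -0.32 and Rpl4 to -0.29, each called lower. Without a call, Rpl9 turned to -0.013, Rpl11 to -0.047, Rps9 to -0.077 and Rpl7 to -0.15. Rplp1 (-0.17), Rpl13a (-0.20), Rps2 (-0.25) and Rpl34 (-0.33) also turned without a call. These settings move the zero by construction. A test against a fold change of 1.2 called 1 member (100 genes higher and 519 lower). Leaving out WT replicates 1 and 2 together called 1 member (96 genes higher and 342 lower), with fewer samples.

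Leaving out 1 library at a time called 6 to 9 members higher and 0 to 1 lower (the 1 without cKO replicate 2), and 556 to 1497 genes higher and 1052 to 1980 lower (against 1412 and 1900 with all libraries; the higher count was 556 and 694 without cKO replicates 1 and 3, and 714, 640 and 896 without WT replicates 1, 2 and 3; the lower count was 1052 and 1187 without cKO replicates 1 and 3, and 1137 and 1239 without WT replicates 2 and 3), with medians of 0.038 to 0.13 for all members, 0.021 to 0.12 for large and 0.044 to 0.18 for small subunit genes, all 3 lowest without cKO replicate 2. Correlations of deviations between same-numbered cKO and WT libraries were -0.21, 0.13, -0.37 and 0.15, so the numbers were not taken to pair them. With the replicate number as a block, 6 members were called higher, and 745 genes were higher and 1169 lower. Estimated counts of genes with near-identical copies limit the precision of single rows.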
